A study of Mus musculus with 16 samples.

Results

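The genes described here are 32 immediate early genes, many of them known to be induced when tissue is dissociated into cells. They were followed across preadipocytes and mature adipocytes of mouse gonadal white fat. They were taken from the read count table by gene name, and all 32 were present among its 54532 genes. All 32 also passed the filter on low counts in every comparison. The libraries came from female C57BL/6 mice, an inbred laboratory strain, and there were 16 bulk RNA-seq libraries in 6 groups. Stress mice went through maternal separation and early weaning (MSEW): they were taken from the dam daily on postnatal days 2 to 16 and weaned on day 17, whereas control mice were left alone until weaning on day 21. On a high-fat diet there were 3 stress and 3 control mature adipocyte libraries, and 4 stress and 4 control preadipocyte libraries. On a low-fat diet there was 1 stress and 1 control preadipocyte library. The labels name no engineered allele. The labels leave out diet composition, age at harvest, the antibodies of the magnetic sort that enriched preadipocytes, and whether a library pooled animals. Nor do they state that each library was a different animal, and p-values therefore reflect the spread among samples, part or all of which may be technical.

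Immediate early genes are transcribed within minutes of a stimulus without new protein synthesis, because the factors that switch them on, among them the cAMP response element binding protein and serum response factor, are already in the cell. Their products are mostly transcription factors, such as the FOS and JUN proteins that pair to form the activator protein AP-1, the EGR zinc finger factors and the NR4A orphan nuclear receptors, together with proteins that end the response by destroying mRNA or blocking signals. Many of the genes are also known to respond to enzymatic digestion, so their mRNA in isolated cells can differ from that in intact fat. Every library here came from collagenase-digested tissue, and no undigested tissue was analysed here, so mRNA made in the animal and mRNA made during digestion cannot be told apart.

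The genes are compact. Their median span in the deposited table was 5211 bases, against 24093 bases for all 14495 protein-coding genes tested. Their principal transcripts had a median of 3 exons, against 9 for all protein-coding genes, and the median exonic length was 3020 bases against 4330. An AU-rich motif of mRNA decay, TTATTTATT, stood in the 3' UTR of 6 of 31 members (19.4%), against 7.3% of 14287 genes. Those 6 were Maff, Fos, Fosl2, Csrnp1, Zfp36 and Zfp36l1, the last pair of which encode proteins that bind such motifs. The median 3' UTR length was 1216 bases in the members and 1006 bases in all genes.

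Promoters are shown for the 3 NR4A receptor genes, whose differences between the cell fractions were among the 6 largest of all members, and for Fos, the prototype of the class. RefSeq promoter windows on GRCm38.p6, from 250 bases before to 50 bases after each start, matched 26 of the 32 members. Capitals mark the core TGACG of the cAMP response element (CRE) on either strand, so CGTCA where it reads on the other strand. The Nr4a1 window is chr15:101266596-101266895 (+ strand), and its start lies within the gene span of the deposited table. The Nr4a2 window is chr2:57123954-57124253 (- strand), the Nr4a3 window is chr4:48045055-48045354 (+ strand) and the Fos window is chr12:85473640-85473939 (+ strand).
Nr4a1: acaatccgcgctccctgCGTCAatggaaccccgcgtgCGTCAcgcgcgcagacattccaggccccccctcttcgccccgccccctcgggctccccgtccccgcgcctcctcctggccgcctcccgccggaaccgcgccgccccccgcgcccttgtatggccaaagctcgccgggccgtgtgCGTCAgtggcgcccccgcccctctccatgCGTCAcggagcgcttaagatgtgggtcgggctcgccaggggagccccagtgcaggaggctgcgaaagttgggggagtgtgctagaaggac
Nr4a2: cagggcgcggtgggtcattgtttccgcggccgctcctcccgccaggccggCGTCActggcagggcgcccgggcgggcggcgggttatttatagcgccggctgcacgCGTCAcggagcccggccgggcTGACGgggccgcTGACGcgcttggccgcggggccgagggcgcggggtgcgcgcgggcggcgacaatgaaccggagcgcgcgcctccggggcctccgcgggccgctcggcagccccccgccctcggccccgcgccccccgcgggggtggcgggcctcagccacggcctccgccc
Nr4a3: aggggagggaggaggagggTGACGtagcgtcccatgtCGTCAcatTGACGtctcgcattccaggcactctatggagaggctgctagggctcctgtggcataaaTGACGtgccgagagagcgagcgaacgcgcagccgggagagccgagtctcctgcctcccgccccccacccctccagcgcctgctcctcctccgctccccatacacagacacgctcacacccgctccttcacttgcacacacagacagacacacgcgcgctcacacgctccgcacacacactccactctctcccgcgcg
Fos: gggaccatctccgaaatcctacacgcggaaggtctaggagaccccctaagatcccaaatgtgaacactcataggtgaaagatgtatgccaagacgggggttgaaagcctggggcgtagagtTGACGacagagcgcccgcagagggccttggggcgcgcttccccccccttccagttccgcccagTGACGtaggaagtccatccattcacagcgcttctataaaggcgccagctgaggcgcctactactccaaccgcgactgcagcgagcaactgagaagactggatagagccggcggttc
Each of the 3 NR4A windows held 4 such cores, and the Fos window held 2. The cores of Nr4a1 began 233, 213, 69 and 40 bases before the start, those of Nr4a2 200, 144, 123 and 111 bases before it, and those of Nr4a3 231, 213, 205 and 147 bases before it. Of the 26 members with a window, 13 held at least 1 core, against 23.0% of 27025 genes and 32.9% of the 11917 tested genes with a window. At least 4 were found in 3 members (11.5%), the 3 NR4A genes, against 0.26% of all genes and 0.54% of those tested. The core was picked as a motif after these windows had been read, and the cut-off of 4 equals the count in each NR4A window. At least 2 cores were found in 9 members (34.6%), against 5.7% of all genes. The full element TGACGTCA, which contains the core on each strand, was in 2 members, Btg2 and Maff (7.7%, against 2.0% of genes). An AP-1 motif, TGANTCA with C or G at N, was in Csrnp1 (3.8%, against 5.9%), and the CArG box bound by serum response factor was in Egr2 and Zfp36 (7.7%, against 1.8%). The members had a median of 24.5 CpG dinucleotides per window, against 21 in the tested genes. These matches describe letters in the windows, not binding, and sites outside the windows were not searched. Egr1, Egr3, Fosl1, Ier2, Klf10 and Myc had no window.

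Totals ran from 14182130 to 23368821 counts per library. Within control high-fat preadipocytes, libraries 1 and 3 barely differed, with 6.93% of genes differing beyond counting noise against 43.9 to 78.6% in the remaining 17 pairs of libraries within a group. They were summed to 1 library in the tests and averaged to 1 sample in the means, so n = 3 there. Control mature adipocyte libraries 1 and 3 had few rare transcripts: the number of genes with 1 to 5 counts over the number with 6 to 15 counts was 1.15 and 0.637 in them, against 1.55 to 2.23 in the other 14 libraries. Defining marker genes followed the labels. Adipoq, the adipocyte hormone adiponectin, was at 1360 to 7090 CPM (read counts scaled to library size) in mature adipocytes and at 1.12 to 46.2 CPM in preadipocytes. Pdgfra, a receptor of fat progenitors, was at 10.1 to 42.7 CPM in mature adipocytes and 372 to 1188 CPM in preadipocytes. Markers of other cells were present in both fractions. Summed over 13 macrophage markers, the level was 2065 to 7946 CPM in mature adipocytes and 1471 to 9271 CPM in preadipocytes. Summed over 12 endothelial markers it was 537 to 2430 CPM in mature adipocytes and 220 to 887 CPM in preadipocytes.

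The 32 genes took 0.715 to 0.92% of all counts in the 6 mature adipocyte libraries, 1.82 to 2.96% in the 8 high-fat preadipocyte libraries, and 2.97% (stress) and 3.18% (control) in the low-fat preadipocyte libraries. The 95% Wilson interval of each share reached at most 0.00763 percentage points to either side, which covers counting error only. By length-scaled level (FPKM, the authors' fragment counts scaled for gene length and depth), the AP-1 subunit gene Junb ranked 17 of 22046 protein-coding genes in high-fat preadipocytes, Egr1 ranked 31, Fos 41, Fosb 61 and Klf4 67. In mature adipocytes Junb ranked 148, Fos 168, Egr1 229, Fosb 419 and Klf4 947. These members were thus among the most abundant mRNAs of the preadipocyte fraction, whereas Egr2 ranked 806, Egr3 1552 and Klf10 2131 there. Most of the 32 members ranked lower in adipocytes. Rhob, a small GTPase, ranked 245 in mature adipocytes and 278 in preadipocytes, and Ier2, a nuclear immediate early protein, 259 in mature adipocytes and 263 in preadipocytes. The lowest rank in preadipocytes was that of Gadd45a, a stress sensor gene, at 2490.

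Junb reached 257 ± 63 FPKM in stress and 347 ± 60 FPKM in control mature adipocytes (SD, n = 3 each), against 975 ± 187 FPKM in stress (n = 4) and 1124 ± 173 FPKM in control (n = 3) high-fat preadipocytes. Egr1 averaged 195 ± 53 FPKM in stress and 238 ± 20 FPKM in control mature adipocytes, against 594 ± 159 and 826 ± 146 FPKM in stress and control high-fat preadipocytes. Zfp36, which encodes the mRNA decay protein tristetraprolin, averaged 194 ± 28 FPKM in stress and 200 ± 36 FPKM in control mature adipocytes, against 370 ± 92 and 398 ± 61 FPKM in stress and control high-fat preadipocytes. In each gene the SD within every group was smaller than the difference between the fractions' group means. The heat map of all members by library shows the same division for most of the list.

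**Figure D1:**
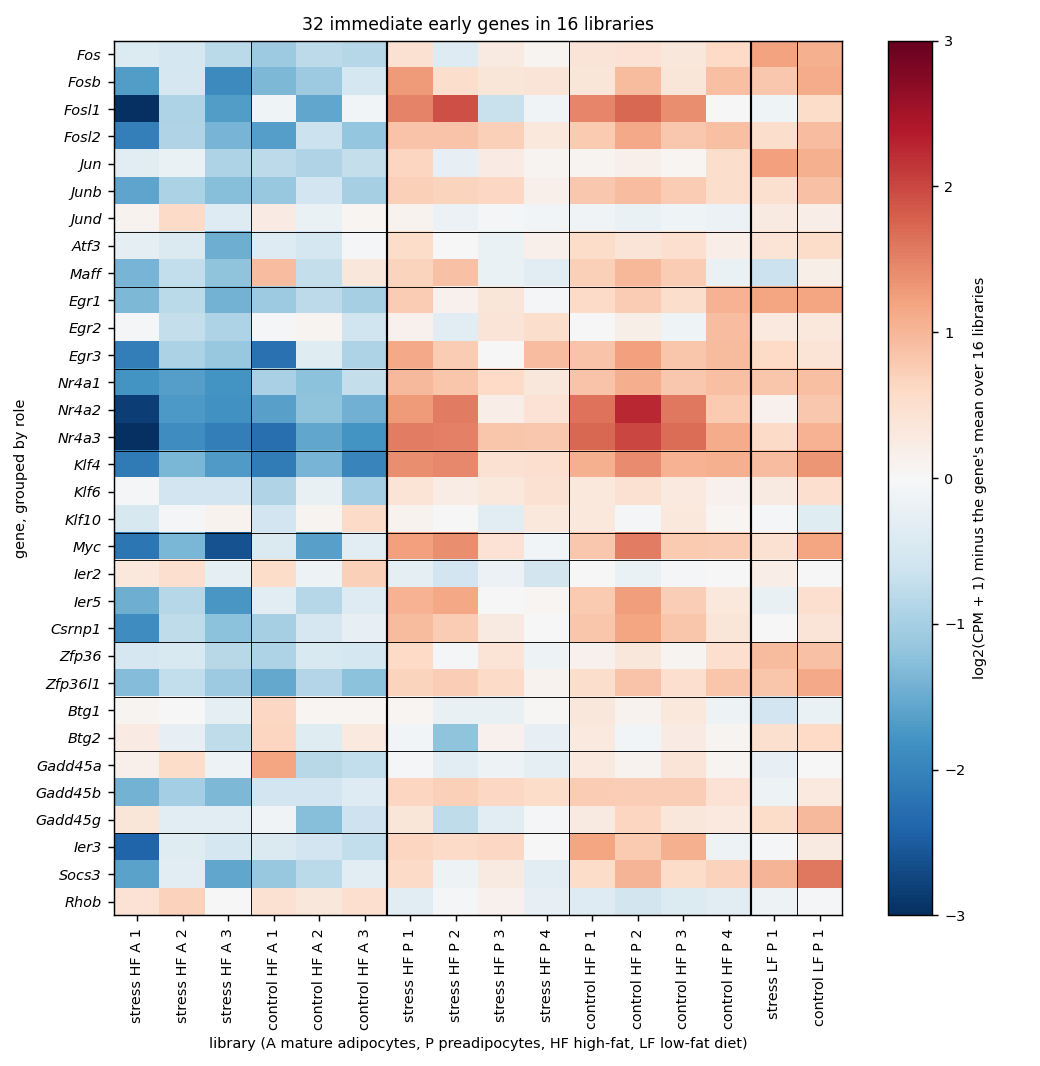
Level of each of the 32 genes (rows, grouped by role) in each of the 16 libraries (columns; A mature adipocytes, P preadipocytes, HF high-fat, LF low-fat diet), as log2(CPM + 1) minus the gene's mean over 16 libraries. The 6 mature adipocyte columns are blue for most genes, while Jund, Btg1, Ier2 and Rhob are near or above their mean there.

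Mature adipocytes held less mRNA of most immediate early genes than preadipocytes. Of the 32 members, 24 were lower in mature adipocytes, 2 were higher and 6 did not pass the test (edgeR's quasi-likelihood test, Benjamini-Hochberg adjusted p under 0.05). The fractions differed widely: 61.3% of 16679 genes were called, 35% lower and 26.4% higher in mature adipocytes. The members' median log2 fold change was -1.39, against -0.25 over all genes tested. In 18 of the 32 members every mature adipocyte library lay below every high-fat preadipocyte library, which held for 20.3% of all genes, and in no member did every mature adipocyte library lie above (3032 of all genes). In bulk samples, fewer cells of a type and less RNA per cell cannot be told apart. Preadipocytes were also enriched by a magnetic sort, so differences of cell type and of handling between the fractions cannot be told apart either.

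The NR4A receptors, nuclear receptors whose activity is set by their own abundance, differed most as a family, and all 3 were lower in mature adipocytes. Nr4a3 had a lowest, median and highest level of 27.5, 70.0 and 92.9 CPM over the 6 mature adipocyte libraries, against 481, 794 and 1106 CPM over the 8 high-fat preadipocyte libraries. The highest adipocyte library was thus far below the lowest preadipocyte library. The fold change was 12.01-fold lower in mature adipocytes (log2 -3.59 ± 0.29 SE, adjusted p = 1.50e-07, edgeR). Nr4a2 stood at 14.2, 33.0 and 45.8 CPM in mature adipocytes, against 123, 289 and 517 CPM in preadipocytes, and was 8.95-fold lower (log2 -3.16 ± 0.32, adjusted p = 1.19e-06, edgeR). Nr4a1 stood at 240, 309 and 511 CPM in mature adipocytes, against 1057, 1506 and 1791 CPM in preadipocytes, and was 4.83-fold lower (log2 -2.27 ± 0.19, adjusted p = 1.81e-07, edgeR). No adipocyte library overlapped a preadipocyte library for any of the 3 genes, which are among the 18 members without overlap. By coordinates of the deposited table on GRCm38, Nr4a1 lies on chromosome 15 from 101254269 to 101274795, Nr4a2 on chromosome 2 from 57106830 to 57124003 and Nr4a3 on chromosome 4 from 48045153 to 48086447.

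Members of other families were also lower. Klf4, a zinc finger factor, had 145, 178 and 247 CPM (lowest, median, highest) in mature adipocytes, against 880, 1339 and 1727 CPM in high-fat preadipocytes. The ranges did not overlap, and Klf4 was 7.55-fold lower (log2 -2.92 ± 0.25, adjusted p = 2.49e-07, edgeR). Its relative Klf6 fell by 0.92 on the log2 scale, and Klf10, a transforming growth factor β response gene, did not pass the test (log2 -0.17 ± 0.19). Myc, a driver of cell growth, had 30.7, 67.7 and 152 CPM in mature adipocytes, against 183, 336 and 562 CPM in preadipocytes, and was 5.34-fold lower (log2 -2.42 ± 0.36, adjusted p = 4.37e-05, edgeR). Within the control libraries alone the log2 fold change of Myc was -1.77 and within the stress libraries -2.81. The low-complexity control adipocyte libraries 1 and 3 held the most Myc of the adipocyte libraries, and without both it was -2.82.

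Of the 7 AP-1 subunits, 6 were lower in mature adipocytes. Fosl1, which encodes the FOS relative FRA-1, had 5.25, 24.6 and 55.0 CPM in mature adipocytes, against 36.3, 158 and 225 CPM in high-fat preadipocytes. The ranges overlapped, and the fold was 5.02 (log2 -2.33 ± 0.54, adjusted p = 0.00174, edgeR). Within the control libraries alone the log2 fold change of Fosl1 was -1.68. Fosl2 fell by 2.13 on the log2 scale, Fosb by 1.90, Junb by 1.80, Fos by 1.098 and Jun by 0.92. Fos itself had 526, 641 and 849 CPM in mature adipocytes, against 865, 1452 and 1704 CPM in preadipocytes. The highest adipocyte library, stress library 1, came close to the lowest preadipocyte library, stress library 2, without reaching it. Jund, the subunit known for steady expression, did not pass the test (log2 0.13 ± 0.16). All 3 EGR factors were lower, Egr3 by 2.14, Egr1 by 1.68 and Egr2 by 0.73 on the log2 scale, as were the basic leucine zipper genes Atf3 (0.81) and Maff (0.97).

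Genes that act after transcription or on signals were divided. The decay protein genes Zfp36l1 and Zfp36 fell by 1.82 and 0.95 on the log2 scale. Ier5 and Csrnp1, which encode nuclear proteins, fell by 1.76 and 1.66, Ier3, a survival gene, by 1.38, and Socs3, an inhibitor of cytokine receptor signalling, by 1.39. Among the 3 GADD45 genes, which encode activators of stress kinases, Gadd45b fell by 1.62, whereas Gadd45g (log2 -0.50 ± 0.27) and Gadd45a (0.16 ± 0.29) did not pass the test. The antiproliferative genes Btg1 (0.01 ± 0.16) and Btg2 (0.03 ± 0.23) did not pass it either. Rhob had 370, 505 and 596 CPM in mature adipocytes, against 254, 295 and 406 CPM in high-fat preadipocytes. Only the lowest adipocyte library, stress library 3, lay inside the preadipocyte range, and Rhob was 1.52-fold higher (log2 0.61 ± 0.15, adjusted p = 0.0035, edgeR). Ier2 had 201, 326 and 405 CPM in mature adipocytes, against 164, 216 and 247 CPM in preadipocytes, and was 1.39-fold higher (log2 0.47 ± 0.18, adjusted p = 0.0308, edgeR). Control library 2 and stress library 3 of the adipocytes lay inside the preadipocyte range for Ier2.

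**Figure D2:**
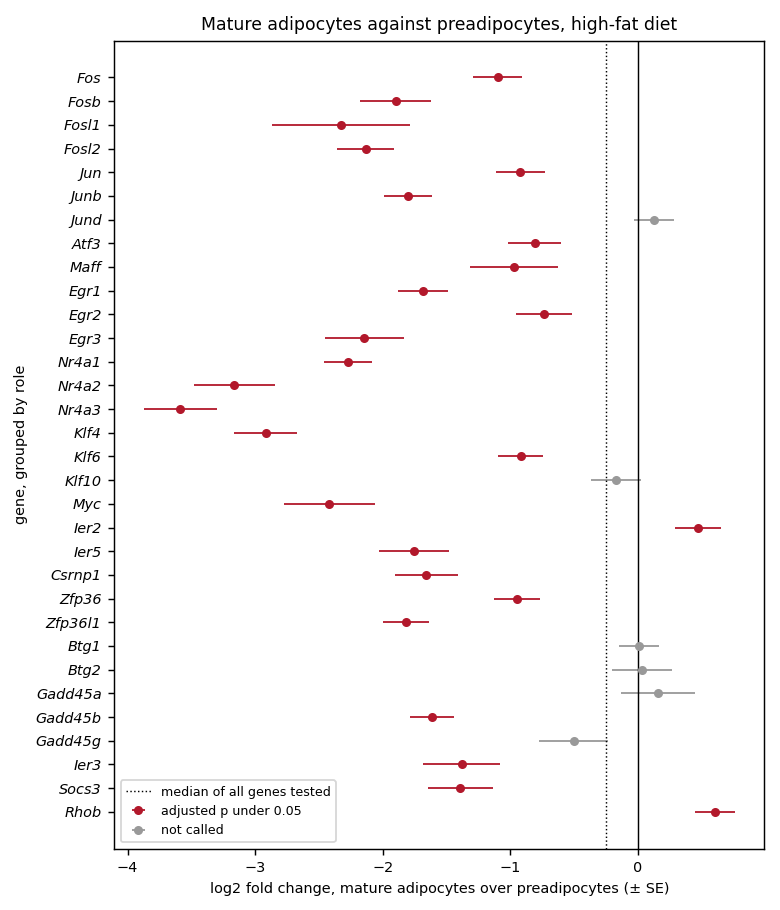
Log2 fold change of each gene, mature adipocytes over high-fat preadipocytes, with its standard error; red points passed the adjusted p of 0.05, grey points did not, and the dotted line is the median of all genes tested (-0.25). Nr4a3 lies farthest to the left at -3.59, and Rhob farthest to the right at 0.61.

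Related gene lists were lower in part. Of 35 other immediate early genes, 25 were lower in mature adipocytes and 1 was higher, with a median log2 fold change of -1.11. Ptgs2, which encodes the prostaglandin synthase COX-2, fell by 4.80 the cytokine gene Lif fell by 3.74, and Dusp4, a phosphatase of MAP kinases, rose by 1.44. Of 10 further bZIP partner genes of AP-1, 6 were lower and none higher, among them Maf (-1.81) and Mafk (-1.39). Of 19 upstream kinases and transcription factors, 6 were lower and 3 higher, with a median of -0.12, near that of all genes. The MAP kinase kinase gene Map2k2 rose by 1.26 and the MAP kinase gene Mapk3 by 0.90, and the cAMP-responsive factors Crem and Creb1 fell by 1.83 and 1.17. Of 13 heat shock genes, another class known to respond to dissociation, 5 were lower and 3 higher (median -0.23), close to the shares of 35% and 26.4% over all genes. Hspa1b fell by 1.68 and the cochaperone gene Bag3 by 1.17, and the mitochondrial chaperonin genes Hspd1 and Hspe1 rose by 1.39 and 1.38. Reads of Hspa1b may be shared with its near-identical copy Hspa1a.

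Markers of cell types moved with the fraction. All 12 mature adipocyte markers were higher (summed level 22820 to 68920 CPM in mature adipocytes, against 547 to 894 CPM in high-fat preadipocytes). All 12 progenitor markers (999 to 2100 CPM, against 13200 to 23820 CPM) and all 10 mesothelial markers (38.7 to 178 CPM, against 149 to 1363 CPM) were lower. Endothelial markers were higher in 11 of 12 and lower in 1, and macrophage markers lower in 1 of 13 and higher in none. Of 8 markers of B cells 6 were lower (median log2 fold change -2.46), and of 10 markers of T and NK cells 7 were lower and 1 higher (median -2.34). Mural cell markers were higher in 5 of 10 and lower in 1 (median 1.36), erythroid genes lower in 2 of 6, and neutrophil markers lower in 1 of 5 tested. The part of these cells in the immediate early difference was not tested. Over 26 alternative settings, 19 of the 26 called members were called in every one. Ier2 lost its call in 9, Maff in 5, Egr2 in 4, Atf3 in 2, and Fos, Jun and Rhob in 1 each, all 3 with stress libraries only. Leaving out control preadipocyte library 2, stress preadipocyte library 4 or stress adipocyte library 1 gave Ier2 an adjusted p of 0.0635, 0.0579 or 0.061 (edgeR). Leaving out stress preadipocyte library 2 or any of stress adipocyte libraries 1, 2 and 3 gave Maff one of 0.061, 0.0677, 0.0721 or 0.0618, and within control libraries alone the log2 fold change of Maff was -0.27.

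**Figure D3:**
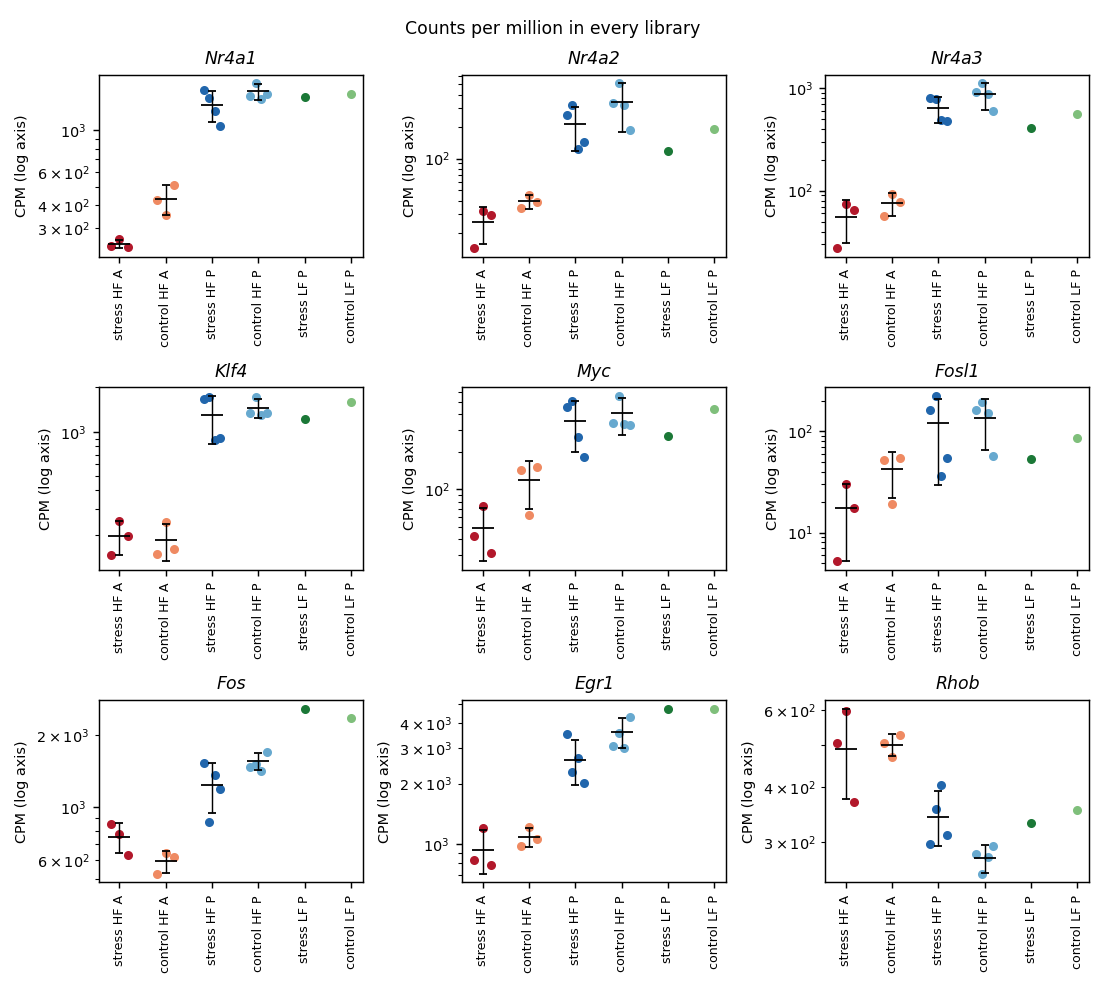
CPM (log axis) of 9 genes in every library; points are libraries by group (A mature adipocytes, P preadipocytes, HF high-fat, LF low-fat diet), and black bars give the mean ± SD where there are at least 3 samples, with control HF preadipocyte libraries 1 and 3 as 1 sample. Mature adipocytes lie below high-fat preadipocytes for 8 of the genes, with overlap for Fosl1, and Rhob is higher in most of them.

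Levels also varied across the high-fat preadipocyte libraries. The ratio of the highest to the lowest of these 8 libraries, stress and control together, had a median of 1.93 over the members. It was 1.58 over 6140 genes with a mean of at least 29.6 CPM, the lowest mean of any member, so levels were not matched. In mature adipocytes it was 2.33 in the members and 2.31 in those genes. Fosl1 varied most widely in high-fat preadipocytes, 6.21-fold, with 164, 225, 36.3 and 54.2 CPM in stress libraries 1 to 4 and 162, 193, 154 and 57.2 CPM in control libraries 1 to 4. Stress libraries 3 and 4 and control library 4 were the low ones. Maff was low in the same 3 libraries, with 234, 272, 127 and 116 CPM in the stress libraries and 241, 291, 250 and 128 CPM in the control libraries. Nr4a2 had 259, 318, 123 and 144 CPM in the stress libraries and 331, 517, 322 and 185 CPM in the control libraries, again lowest in those 3. The summed level of 10 mesothelial markers was 594, 629, 176 and 149 CPM in stress libraries 1 to 4 and 1363, 908, 1349 and 237 CPM in control libraries 1 to 4, so it was lowest in the same 3 libraries. Single markers differed: Msln was lowest in those 3 too, but Wt1 was not. Wt1 was at 134 CPM in control library 4 and 130 CPM in stress library 3, against 122 and 119 CPM in control libraries 1 and 3. Krt8 was at 35.5 CPM in stress library 4, against 32.6 and 33.6 CPM in stress libraries 1 and 2. The macrophage sum was 3129, 1471, 8008 and 9271 CPM in the stress libraries and 4570, 1634, 4406 and 3625 CPM in the control libraries, with stress libraries 3 and 4 highest. The part of these cells in the spread of Fosl1, Maff and Nr4a2 was not tested.

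The comparison of stress with control preadipocytes on the high-fat diet asked whether early life stress had altered these genes, and no member was called. The share of counts in the 32 genes was 2.26 ± 0.49% in stress (n = 4) and 2.74 ± 0.082% in control preadipocytes (n = 3). By edgeR, 0% of 17129 genes passed the adjusted p of 0.05, and 496 genes, 2 of them members, had an unadjusted p under 0.05. DESeq2 called 4 genes and no member. Of the members, 29 had a log2 fold change below 0 and 3 above 0, with a median of -0.22 against 0.02 over all genes. Of all 17129 genes, 8059 were below 0. Gadd45a had 26.9, 22.3, 25.0 and 23.1 CPM in the stress libraries, against 34.4, 30.4, 36.9 and 29.5 CPM in the control libraries. Every stress library lay below every control library, which held for 1 of the 32 members and 1.27% of all genes. The difference was -0.40 ± 0.14 on the log2 scale (unadjusted p = 0.021, adjusted p = 0.973, edgeR).

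Socs3 had 820, 494, 657 and 429 CPM in the stress libraries, against 807, 1109, 796 and 877 CPM in the control libraries, with stress library 1 inside the control range (log2 -0.64 ± 0.26, unadjusted p = 0.0375, adjusted p = 0.973, edgeR). Gadd45g had 127, 57.8, 78.2 and 95.5 CPM in the stress libraries, against 119, 155, 125 and 122 CPM in the control libraries, also with library 1 of the stress group inside the control range (log2 -0.58 ± 0.26, unadjusted p = 0.0608, edgeR). Rhob was the member in which every stress library lay above every control library, which held for 1.45% of all genes. It had 297, 356, 406 and 312 CPM in the stress libraries, against 281, 254, 277 and 294 CPM in the control libraries (log2 0.30 ± 0.15, unadjusted p = 0.0875, edgeR). Among the other lists none had a called gene. The 12 endothelial markers had a median log2 fold change of -1.18, the 10 mesothelial markers -1.10, the 8 B cell markers -1.23, the 6 erythroid genes -0.90 and the 13 macrophage markers 0.77. The B cell sum was 16.8 to 68.5 CPM in stress and 52.4 to 147 CPM in control preadipocytes. The part of these cells in the members' values was not tested.

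In mature adipocytes, stress against control likewise gave no called member. The 32 genes took 0.759 ± 0.047% of counts in stress and 0.843 ± 0.11% in control adipocytes (n = 3 each). By edgeR 0% of 14485 genes were called, and 417 genes, 6 of them members, had an unadjusted p under 0.05. DESeq2 called 9 genes and no member. The members' median log2 fold change was -0.37, against -0.01 over all genes, and 25 of 32 were below 0. Of all 14485 genes, 7362 were below 0. In 5 members, Maff, Nr4a1, Nr4a2, Ier5 and Gadd45b, every stress library lay below every control library, as in 2.71% of all genes; no member showed the reverse order, which 4.49% of genes did. No gene of the cell type lists was called. The 12 progenitor markers had a median log2 fold change of -0.48, with a summed level of 999 to 1589 CPM in stress and 1019 to 2100 CPM in control adipocytes, and the 9 mesothelial markers tested had a median of -0.51. The part of these cells in the members' values was not tested.

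Maff, a small MAF protein gene, had 54.7, 87.0 and 63.2 CPM in the stress libraries, against 278, 88.4 and 184 CPM in the control libraries. Control library 2 was nearly level with stress library 2, and the difference was -1.47 ± 0.42 on the log2 scale (unadjusted p = 0.00535, adjusted p = 0.9996, edgeR). Myc had 42.1, 73.5 and 30.7 CPM in the stress libraries, against 143, 62.0 and 152 CPM in the control libraries. Its groups overlapped through control library 2 (log2 -1.36 ± 0.44, unadjusted p = 0.0105, edgeR). Nr4a1 had 241, 263 and 240 CPM in the stress libraries, against 426, 355 and 511 CPM in the control libraries, with no overlap (log2 -0.85 ± 0.32, unadjusted p = 0.0215, edgeR). For all 3 genes the 2 highest libraries were control libraries 1 and 3, the low-complexity ones. With both left out, in an alternative chosen after seeing the data, the log2 fold change was -0.44 for Maff, -0.42 for Myc and -0.58 for Nr4a1 (adjusted p = 0.999 each, edgeR). That fit assumes that the lone control library varies like the stress libraries.

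**Figure D4:**
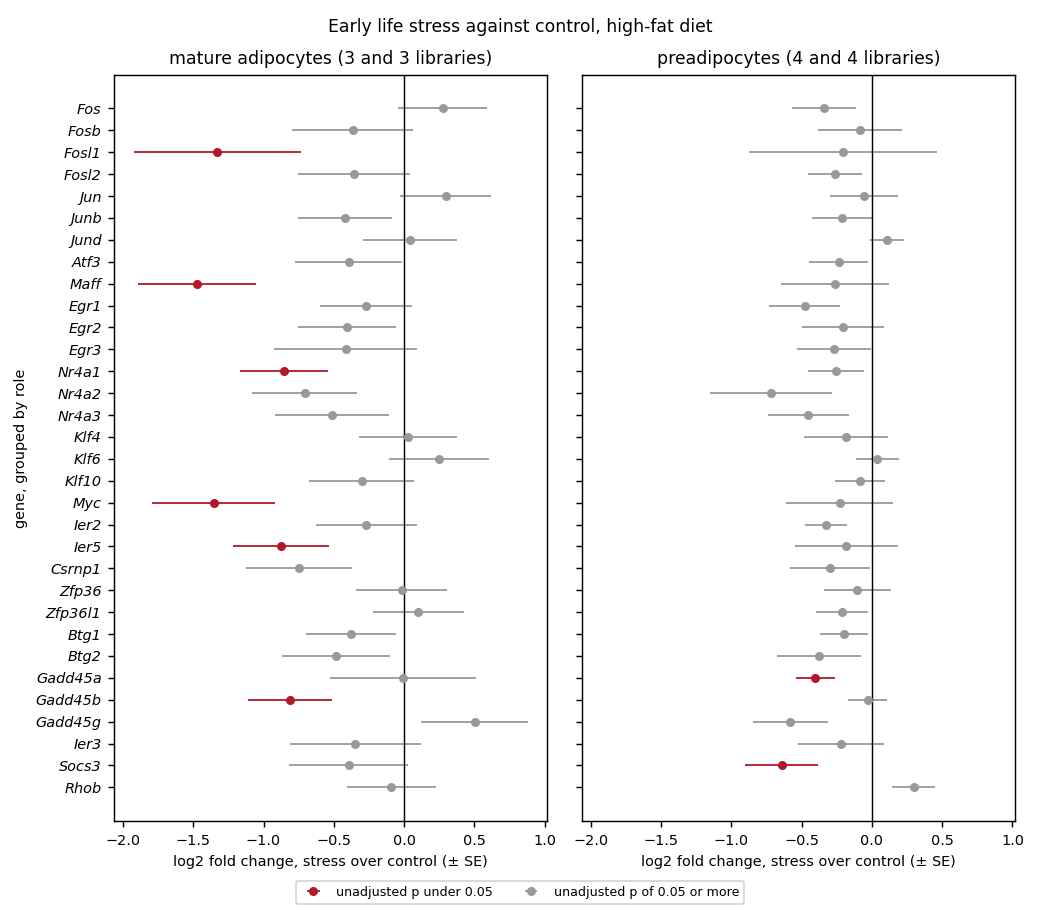
Log2 fold change of each gene, stress over control, with its standard error, in mature adipocytes (left) and preadipocytes (right) on the high-fat diet; red points had an unadjusted p under 0.05, and control preadipocyte libraries 1 and 3 were summed. None passed the adjusted threshold. Maff lies lowest in mature adipocytes at -1.47, and Nr4a2 lowest in preadipocytes at -0.72.

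The stress effect was also compared between the fractions by an interaction term. Of 17948 genes, 0% were called by edgeR, 873 genes, 2 of them members, had an unadjusted p under 0.05, and DESeq2 called 3 genes and no member. Gadd45b had the smallest p, with 93.0, 123 and 98.4 CPM in stress and 169, 168 and 192 CPM in control mature adipocytes, against 393, 411, 385 and 365 CPM in stress and 424, 416, 420 and 340 CPM in control preadipocytes. The stress effect was lower by 0.75 ± 0.28 on the log2 scale in adipocytes than in preadipocytes (effect difference -0.75, unadjusted p = 0.0189, adjusted p = 0.934, edgeR). For Gadd45g, with 128, 77.9 and 79.1 CPM in stress and 91.8, 40.2 and 64.2 CPM in control mature adipocytes, the effect difference was 1.13 ± 0.46 (unadjusted p = 0.0272). For Maff it was -1.21 ± 0.62 (unadjusted p = 0.0711).

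Diet was compared within preadipocytes, the fraction with both diets. The most abundant members by mean FPKM were divided, and none passed the test. The log2 fold change, high-fat over low-fat, was -0.86 for Fos, -0.65 for Zfp36 and -0.64 for Egr1. For Fosb it was -0.23, for Klf4 -0.03 and for Junb -0.02. By edgeR 0% of 18468 genes were called, and 2360 genes, 9 of them members, had an unadjusted p under 0.05. DESeq2 called 422 genes, among them Jun (adjusted p = 0.0222) and Fos (adjusted p = 0.029) as lower and Gadd45b as higher. The members' median log2 fold change was -0.03, against 0.02 over all genes, with 14 above and 18 below 0. Of all 18468 genes, 9573 were above and 8895 below 0. In 7 members every high-fat library lay below both low-fat libraries, as in 8.57% of all genes: Fos, Jun, Jund, Egr1, Zfp36, Btg2 and Socs3. In 1 member, Gadd45b, every high-fat library lay above both, as in 7.54% of genes.

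Jun had a lowest, median and highest level of 639, 829 and 1185 CPM over the 8 high-fat libraries, against 1792 CPM in the stress and 1596 CPM in the control low-fat library. All high-fat libraries were below both low-fat libraries (log2 -0.93 ± 0.23, unadjusted p = 0.0029, adjusted p = 0.32, edgeR). Fos had 865, 1452 and 1704 CPM on the high-fat diet, against 2587 CPM in the stress and 2364 CPM in the control low-fat library (log2 -0.86 ± 0.23, unadjusted p = 0.00429, adjusted p = 0.32, edgeR). Socs3 had 429, 801 and 1109 CPM on the high-fat diet, against 1114 CPM in the stress and 1651 CPM in the control low-fat library. The highest high-fat library was nearly level with the low-fat stress library (log2 -0.87 ± 0.24, unadjusted p = 0.00581, adjusted p = 0.32, edgeR). Egr1 had 2023, 3061 and 4291 CPM on the high-fat diet, against 4726 CPM in the stress and 4748 CPM in the control low-fat library. Gadd45b had 340, 402 and 424 CPM on the high-fat diet, against 227 CPM in the stress and 308 CPM in the control low-fat library (log2 0.55 ± 0.16, unadjusted p = 0.00666, edgeR).

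**Figure D5:**
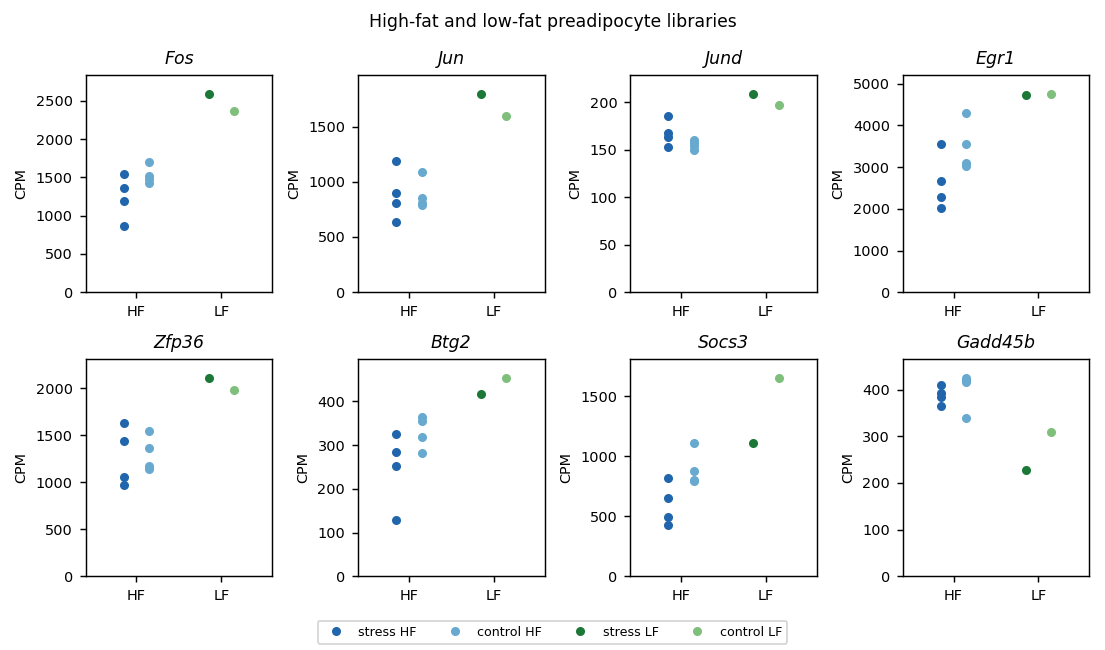
CPM of the 8 members whose high-fat (HF, 8 libraries) and low-fat (LF, 2 libraries) preadipocyte libraries did not overlap, with stress and control libraries in separate colours; axes start at 0. The low-fat libraries are higher for 7 genes and lower for Gadd45b.

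The members did not move as 1 block with diet. The NR4A genes Nr4a2 (log2 0.85 ± 0.45) and Nr4a3 (0.62 ± 0.29) lay on the other side of 0 from Fos and Jun, and neither passed the test. Nr4a1 was near 0 (-0.05 ± 0.20). Macrophage markers had a median log2 fold change of 1.45, with summed levels of 1471 to 9271 CPM on the high-fat diet, against 1988 CPM in the stress and 1568 CPM in the control low-fat library. Erythroid genes had a median of -1.43, with 240 to 2381 CPM on the high-fat diet, against 4125 and 2708 CPM in the stress and control low-fat libraries. Their part in the members' values was not tested, and with 1 low-fat library per treatment the diet difference rests on that pair of libraries.

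The low-fat stress and control libraries were compared with no test. The log2 ratio of stress to control CPM had a median of -0.31 over the members and ran from -0.84 (Maff, 93.0 CPM in stress and 167 CPM in control) to 0.31 (Klf10, 69.3 CPM in stress and 55.9 CPM in control). In 25 members the stress library was lower and in 7 it was higher, and none differed by more than 2-fold. This difference has no replicate check. The same ratio was not computed over all genes, so the members' lean towards lower values cannot be told from a shift of the whole library.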

How the data were processed

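RNA from collagenase-digested gonadal fat was sequenced as bulk libraries, per the labels' protocols. The authors deposited 2 tables over all 16 libraries, one of raw counts and one of FPKM values. The submitters' processing notes name STAR 2.6.1d, edgeR 3.24.3, DESeq2 1.20.0 and the builds GRCm38 and mm10. How and on which annotation reads were counted, and whether by strand, is not given in the sources used here, so reads of overlapping genes may be shared.

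Counts were tested with edgeR 4.0.16 under R 4.3.3 (filterByExpr, TMM scaling, robust quasi-likelihood F test, Benjamini-Hochberg adjustment over all genes tested, threshold 0.05), after tests on simulated data. In simulated counts 100 abundant genes had a true log2 change of 1 and 100 one of 2, and the rest had none. A change of 1 was called in 55% of changed genes between the fractions. Between the real fractions 61.3% of genes were called, so this 55% need not hold there. For stress a change of 1 was called in 30% in preadipocytes and 3% in mature adipocytes, for diet in 25% and for the interaction in 1%. Most changes of that size would thus be missed in the stress, diet and interaction comparisons. A change of 2 was called in 97% between the fractions, 94% and 72% for stress in preadipocytes and mature adipocytes, 83% for diet and 27% for the interaction. Fractions were compared in the 14 high-fat libraries with treatment as a covariate, stress within each fraction, and diet in 10 preadipocyte libraries with treatment as a covariate. CPM values are counts scaled with TMM factors over 16 libraries. Near-identical libraries were sought over genes whose counts in a pair summed to 20 or more. Alternatives used DESeq2 1.42.0, limma 3.58.1 on log2(FPKM + 1) or log2(FPKM + 0.1), RLE factors, no filter, a filter at 1 CPM, each library left out, subsets of libraries and a replicate block. Exons and 3' UTRs came from GENCODE M21 and promoters from RefSeq.

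The members and gene lists were chosen with earlier results of these data known. Values in every library are given, for each comparison, for up to 6 called members with the largest change or, where none was called, for the 3 with the smallest p, and levels for abundant members; the remaining named members were picked after their values were seen. Of other lists, up to 2 called genes per direction are named.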

Additional observations from a re-analysis of the deposited data

Results flagged for a closer look

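In the 4 stress high-fat preadipocyte libraries, 34 values were tested for a library apart from the rest: the 32 members, their share of counts and their mean level. Fosb, an AP-1 subunit gene, was at 4337 CPM in library 1, against 2590, 2295 and 2339 CPM in libraries 2, 3 and 4. Ier3 was at 172.5 CPM in library 4, against 265, 254 and 264 CPM in libraries 1, 2 and 3. In each case the gap from that library to the nearest of the others took up more of the group's range than Dixon's 95% critical value for 4 samples. Chance flags about 1 in 20 groups.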

How the results depend on the processing

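In the comparison of mature adipocytes with preadipocytes the members called lower numbered 24, and 20 to 24 over 26 alternatives. The members called higher numbered 2, and 1 with limma on either FPKM scale, with control libraries only and without control mature adipocyte libraries 1 and 3 together, and 0 with stress libraries only; with each library left out in turn they numbered 1 to 2. Genes called numbered 10231, and 5998 with control libraries only. Libraries sharing a replicate number across groups did not always correlate best with each other (correlations of deviations -0.46 to 0.51). Between the fractions these correlations ran from -0.31 to 0.25, and they cannot show whether the fractions came from the same animals. The replicate block, with the near-identical pair as separate libraries, gave 23 members lower and 1 higher. It called no member for stress in either fraction. For stress, no alternative called a member, while the genes called reached 4 with DESeq2 and 2 with the replicate block in preadipocytes, and 51 without the filter, 9 with DESeq2 and 9 without control replicate 2 in mature adipocytes; for the interaction they reached 3 with DESeq2. For diet, DESeq2 called 2 members lower and 1 higher and 422 genes, against 0 by edgeR, and 1 gene was called without the filter, with limma on log2(FPKM + 0.1) and without control replicate 4. The cause of these differences was not tested, except that subsets hold fewer libraries. The 6 genes followed through the fraction comparison and the 3 followed through each other comparison kept their sign, while the members' median crossed 0 for diet (-0.09 to 0.06) and for the interaction (-0.20 to 0.04).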
